A study of Mus musculus with 4 samples.

Results

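Fxyd1, Rasd2, Cort, Fbxo2, Nrxn2 and Dusp8 are 6 of the 24527 gene symbols in a table of reads per gene from mouse B16F10 melanoma. They were chosen by their measured ratios. Fxyd1, Rasd2 and Cort were among the 5 highest ratios of spheroid to 2D monoculture, and Fbxo2, Nrxn2 and Dusp8 were among the 5 highest ratios of spheroid to tumor. The ranking covered the 9588 genes that averaged 10 CPM or more over the 4 libraries, with 1 CPM added to each value. CPM (the unit used throughout, here after scaling with edgeR's TMM factors) is a gene's read number relative to the size of its library. The ratio that chose a gene is therefore a description of the choice and not a finding, and the other comparisons share the spheroid library with it or one another's libraries.

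B16F10 is a pigmented mouse melanoma line, and all 4 libraries carry the genotype label WT. The first library came from B16F10 cells grown alone in flat culture (2D monoculture), the second from B16F10 cells grown flat beside NIH/3T3 mouse fibroblasts (2D co-culture), and the third from spheroids of both lines formed in hanging drops. The fourth came from tumors that grew after B16F10 cells were injected under the skin of one-year-old female C57BL/6 mice. According to the methods, the B16F10 cells made green fluorescent protein, the fibroblasts were red, and live green cells were sorted before RNA isolation. The library name of the tumor sample, in contrast, says snap frozen, and that library held RNA of host cells. Its 7 skeletal muscle markers summed to 5071 CPM (3.28 to 13.0 CPM in the cultures), its 9 fibroblast markers to 2728 CPM and its 8 myeloid markers to 1839 CPM (9.96 to 29.9 CPM in the cultures). Its 6 endothelial markers summed to 244 CPM and its 4 adipocyte markers to 791 CPM, against at most 4.55 and 1.28 CPM in the cultures. The fibroblast sum was 679 CPM in 2D co-culture, 36.5 CPM for the spheroid and 17.6 CPM in 2D monoculture. All 8 melanocyte markers were above 1 CPM in every library, with sums of 16911 CPM in 2D monoculture, 15306 CPM in 2D co-culture, 11420 CPM for the spheroid and 20122 CPM for the tumor. In such bulk libraries, fewer cells of a type and less RNA per cell cannot be told apart. Each condition had 1 library, with 118896900 to 150028663 counted reads, so no difference has a replicate check, no test was made, and the 95% intervals cover counting error only.

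The 6 genes are best known from excitable tissue. Fxyd1 encodes phospholemman, a small membrane protein that regulates the sodium pump in heart and skeletal muscle and in brain. Rasd2 encodes Rhes, a RAS-like GTPase of the striatum, and Cort encodes the precursor of cortistatin, a neuropeptide related to somatostatin. Fbxo2 encodes a neuron-enriched F-box protein that recognises the sugar chains of misfolded glycoproteins for ubiquitination. Nrxn2 encodes neurexin-2, a presynaptic adhesion protein. Dusp8 encodes a phosphatase that removes phosphate from the stress kinases JNK and p38 and is found in brain and heart.

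Most of the 15 general markers of neurons that were listed did not accompany them. The list is not complete. Eno2, the enolase of neurons, was not on it and had 216 CPM in the spheroid, 59.5 in 2D monoculture and 6.59 in the tumor. Of the 15 listed markers, among them Rbfox3, Snap25 and Stmn2, 12 had under 1 CPM in the spheroid, and 5 of these had no read there. The same number, 12, lay under 1 CPM in each 2D culture, and 9 in the tumor. The summed level was 108 CPM in the spheroid, below 279 CPM in 2D monoculture and 223 CPM in 2D co-culture, and it was 64.0 CPM in the tumor. Most of each sum was Tubb3, a tubulin of neurons that melanoma cells also express, with 89.9 CPM in the spheroid and 249 CPM in 2D monoculture. Of 8 glial markers, 4 were measured at 1 CPM or more on average (called measured from here on). Of these, 2 were over 2-fold higher in the spheroid than in 2D monoculture (11.2% of all measured genes), Mbp and Gfap. Both were over 2-fold lower in the spheroid than in the tumor (27.6%). Of 11 neuroendocrine markers, 2 were measured and neither was over 2-fold from 2D monoculture in the spheroid. The group is for that reason called by its gene names here and not by a cell type.

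In the mouse genome (GRCm38, GENCODE M21), Fxyd1 lies at chr7:31051678-31057199 and Dusp8 at chr7:142079490-142095843, both on the minus strand. Rasd2 lies at chr8:75213944-75224113 and Nrxn2 at chr19:6418731-6544169, both on the plus strand. Cort (chr4:149125034-149126763, minus strand) and Fbxo2 (chr4:148160621-148166424, plus strand) are on the same chromosome with 958609 bases between them. The submitters' processing notes name mm10, which is the same assembly.

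Promoter windows of 250 bases before to 50 after the start were found in RefSeq (GRCm38.p6) for 5 of the 6 genes, all but Nrxn2. Dusp8 is shown because its window held the cAMP response element TGACGTCA 2 times, Cort because its window held TGACG, a part of that element, a single time, and Rasd2 because it was the richest in G and C and held neither. Bases before the start are printed 5′ to 3′ on the gene's strand, and capitals mark TGACG or its complement CGTCA. The Dusp8 stretch lies inside the annotated span of the gene but outside its exons, and the others lie directly before their genes.
Dusp8, chr7:142095285-142095534 (minus strand): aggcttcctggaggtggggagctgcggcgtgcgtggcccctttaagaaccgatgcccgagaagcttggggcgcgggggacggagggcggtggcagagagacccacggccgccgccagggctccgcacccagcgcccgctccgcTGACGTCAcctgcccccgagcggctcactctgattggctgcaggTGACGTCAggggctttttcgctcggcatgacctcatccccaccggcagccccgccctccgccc
Cort, chr4:149126764-149127013 (minus strand): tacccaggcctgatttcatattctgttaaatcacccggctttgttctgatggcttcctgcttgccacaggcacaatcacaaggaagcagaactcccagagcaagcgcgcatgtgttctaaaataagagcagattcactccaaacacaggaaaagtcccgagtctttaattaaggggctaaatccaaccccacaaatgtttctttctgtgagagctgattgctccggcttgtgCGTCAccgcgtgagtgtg
Rasd2, chr8:75213694-75213943 (plus strand): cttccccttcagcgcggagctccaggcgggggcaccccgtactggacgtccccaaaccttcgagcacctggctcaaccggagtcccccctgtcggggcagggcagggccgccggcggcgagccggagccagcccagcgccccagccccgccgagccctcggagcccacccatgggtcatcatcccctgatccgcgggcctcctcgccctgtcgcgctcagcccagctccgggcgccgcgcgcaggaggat

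The elements of Dusp8 began 107 and 63 bases before its start. Of 32851 RefSeq windows of the same length, searched on both strands, 588 (1.79%) held TGACGTCA and 13 (0.0396%) held it 2 or more times. The shorter TGACG, which the full element contains on each strand, was in 20.8% of windows, and it stood 18 bases before the start of Cort and 47 before that of Fbxo2. Neither sequence was found in the windows of Fxyd1 and Rasd2. The GC box GGGCGG, in 35.7% of all windows, occurred 3 times in Dusp8 and 1 time in Fbxo2. No copy of TGATGNAA (3.97% of windows), the E-box CACGTG (7.15%), ACGTG (19.6%), which lies within the E-box, or TTCAGCACC (0.371%), the left part of the element bound by the neuronal gene repressor REST, was present in any of the 5 windows. The windows differed in base composition. G and C made up 74.7% of the Rasd2 window, 73.3% of that of Dusp8 and 69.0% of that of Fbxo2, against 58.7% for Fxyd1, 49.3% for Cort and a median of 52.7% over all windows. CpG pairs numbered 34 in Dusp8, 33 in Rasd2, 21 in Fbxo2, 10 in Cort and 6 in Fxyd1, where the median window had 7.

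Fxyd1 was low in 2D monoculture and at a mid-range level in the spheroid. It had 0.856 CPM (95% interval 0.711 to 1.02, 122 reads) in 2D monoculture, 2.65 CPM (2.36 to 2.96, 303 reads) in 2D co-culture, 37.1 CPM (36.0 to 38.1, 5046 reads) in the spheroid and 27.9 CPM (27.1 to 28.8, 4534 reads) in the tumor. Spheroid and tumor were high and both 2D cultures low. The ratio that chose it, spheroid to 2D monoculture, was 43.3-fold (log2 5.44, 5.18 to 5.71). The spheroid and the tumor stood only 0.41 apart on the log2 scale (0.35 to 0.47), and the tumor was 32.6-fold above 2D monoculture. Phospholemman is a muscle protein, and all 7 muscle markers were at 143 CPM or more in the tumor. In the spheroid they were between 0.176 and 7.20 CPM. The share of muscle RNA in the Fxyd1 level of the tumor was not tested.

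Rasd2 was high in the spheroid alone. It had 3.29 CPM (3.00 to 3.60, 469 reads) in 2D monoculture, 6.18 CPM (5.73 to 6.65, 707 reads) in 2D co-culture, 79.7 CPM (78.2 to 81.2, 10851 reads) in the spheroid and 7.56 CPM (7.14 to 7.99, 1227 reads) in the tumor. The other 3 libraries lay close together and far under the spheroid. Its selecting ratio to 2D monoculture was 24.2-fold (log2 4.60, 4.46 to 4.73). Against the tumor the log2 ratio was 3.40 (3.31 to 3.48), and against 2D co-culture 3.69.

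Cort followed the order of Fxyd1, with the tumor between the spheroid and the flat cultures. Its levels were 1.97 CPM (1.75 to 2.22, 281 reads) in 2D monoculture, 4.60 CPM (4.22 to 5.01, 527 reads) in 2D co-culture, 44.2 CPM (43.1 to 45.3, 6017 reads) in the spheroid and 18.7 CPM (18.0 to 19.3, 3030 reads) in the tumor. The spheroid was highest, and the 2D cultures were well under the tumor. The selecting ratio was 22.4-fold (log2 4.49, 4.31 to 4.66). The tumor was 9.46-fold above 2D monoculture, and the spheroid exceeded the tumor by 1.24 on the log2 scale (1.18 to 1.31).

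**Figure D1:**
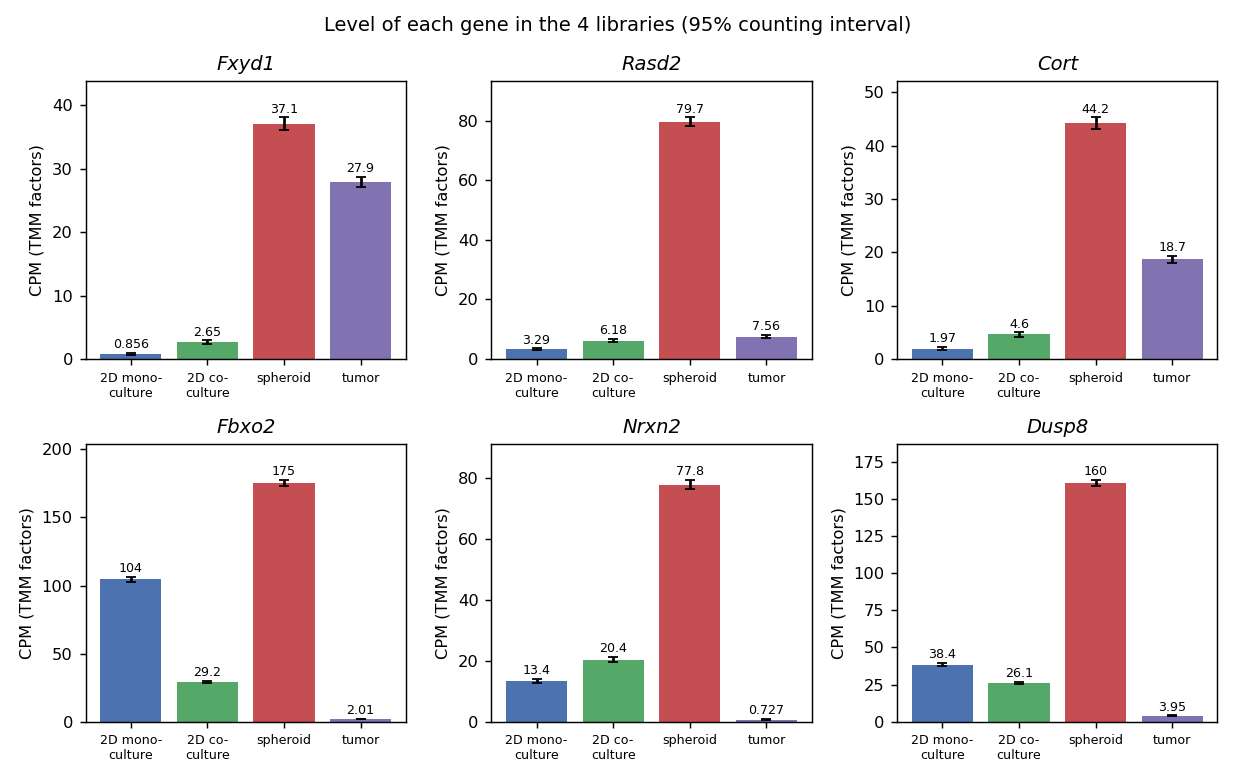
Level of each of the 6 genes in CPM (linear axis from 0, with its own scale for each gene) in the 4 libraries, 1 bar per library with its exact 95% counting interval. All 6 genes were highest in the spheroid, and Fbxo2, Nrxn2 and Dusp8 were lowest in the tumor, at 2.01, 0.727 and 3.95 CPM.

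Fbxo2 was low in the tumor, as were Nrxn2 and Dusp8, and it was already well read in 2D monoculture. It had 104 CPM (103 to 106, 14886 reads) in 2D monoculture, 29.2 CPM (28.2 to 30.2, 3339 reads) in 2D co-culture, 175 CPM (173 to 178, 23868 reads) in the spheroid and 2.01 CPM (1.80 to 2.24, 327 reads) in the tumor. The spheroid and the 2D monoculture were both high, the 2D co-culture lower and the tumor far lower. The ratio of spheroid to tumor, which chose it, was log2 6.44 (6.29 to 6.61). Between spheroid and 2D monoculture the log2 ratio was 0.75 (0.72 to 0.78), or 1.68-fold. The 2D co-culture was lower than the 2D monoculture, with a log2 ratio of -1.84, and the tumor was 51.9-fold lower than the 2D monoculture.

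Nrxn2 had the lowest tumor level of the 6 genes. Its levels were 13.4 CPM (12.8 to 14.0, 1912 reads) in 2D monoculture, 20.4 CPM (19.6 to 21.2, 2332 reads) in 2D co-culture, 77.8 CPM (76.4 to 79.3, 10600 reads) in the spheroid and 0.727 CPM (0.602 to 0.870, 118 reads) in the tumor. The 3 cultures all carried it, the spheroid most, and the tumor hardly did. The selecting log2 ratio of spheroid to tumor was 6.74 (6.48 to 7.02). That of spheroid to 2D monoculture was 2.54 (2.47 to 2.61), and the tumor lay 18.5-fold below the 2D monoculture.

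Dusp8 had 38.4 CPM (37.4 to 39.4, 5466 reads) in 2D monoculture, 26.1 CPM (25.1 to 27.0, 2985 reads) in 2D co-culture, 160.5 CPM (158 to 163, 21850 reads) in the spheroid and 3.95 CPM (3.65 to 4.27, 641 reads) in the tumor. The order of the libraries was that of Fbxo2, but with both 2D cultures close together. The log2 ratio of spheroid to tumor, by which it was chosen, was 5.34 (5.23 to 5.46). The spheroid was above 2D monoculture by 2.06 (2.02 to 2.11) and above 2D co-culture by 2.62 on the same scale, and the tumor was 9.72-fold below the 2D monoculture. The host cell markers given above were high in the tumor library, where Fbxo2, Nrxn2 and Dusp8 were lowest, and their part in these levels was not tested.

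Within each gene, the counting intervals of the 4 libraries did not overlap, but with 1 library each the spread between samples is unknown. The closest neighbours in order were Rasd2 in tumor and 2D co-culture, with a log2 ratio of -0.29 for co-culture to tumor, and Fxyd1 in spheroid and tumor. Divided by the length of the longest coding transcript, Fbxo2 had the highest level in the spheroid, 136 CPM per kb, followed by Cort with 65.3, Fxyd1 with 59.8, Dusp8 with 33.4, Rasd2 with 28.4 and Nrxn2 with 11.7 CPM per kb. In the tumor the order by the same measure was Fxyd1 with 45.0, Cort with 27.6, Rasd2 with 2.69, Fbxo2 with 1.56, Dusp8 with 0.822 and Nrxn2 with 0.109 CPM per kb. The low tumor levels of Fbxo2, Nrxn2 and Dusp8 are part of the ratio that chose them, so their place in this order was largely fixed by the choice.

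**Figure D2:**
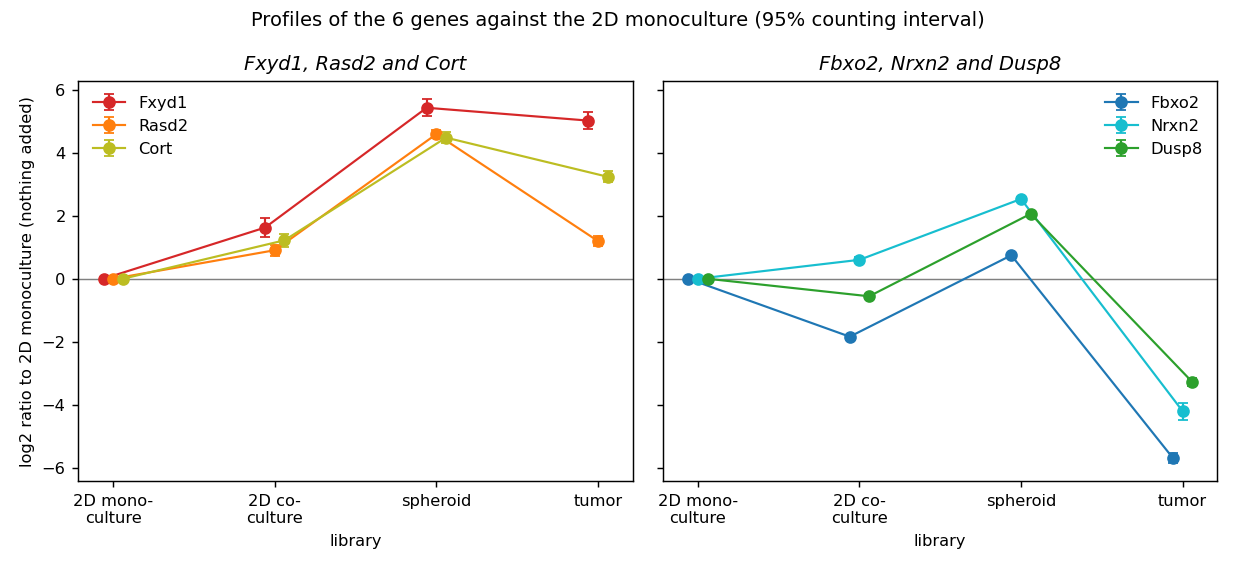
Log2 ratio of each library to the 2D monoculture for the 6 genes (nothing added, 95% counting intervals), with lines joining the values of 1 gene. In the tumor, Fxyd1 (5.03), Cort (3.24) and Rasd2 were above the 2D monoculture and Dusp8 (-3.28), Nrxn2 (-4.21) and Fbxo2 (-5.70) were below it.

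Counts over 2-fold, with 1 CPM added, were made on the 12728 genes that averaged 1 CPM or more, a filter all 6 genes passed. In spheroid against 2D monoculture, 5 of the 6 were over 2-fold higher (11.2% of all genes), all but Fbxo2, and none was lower (17.9%). In spheroid against tumor, 5 were over 2-fold higher (26.8% of all genes), all but Fxyd1, and none was lower (27.6%). The count was 4 with total counts and with the GC and length correction, where Cort was under 2-fold. Both comparisons chose members, so nothing is read from these counts. Against 2D co-culture, which chose none but shares the spheroid library, all 6 were over 2-fold higher (9.54% of all genes) and none lower (8.46%), from 1.88 for Nrxn2 to 3.49 for Rasd2 on the log2 scale. A high spheroid level was part of every choice, so this count is partly fixed as well. Rasd2 was under 10 CPM in every library but the spheroid, and passed the 10 CPM average of the rankings through that library alone. Cort had 1.97 CPM in 2D monoculture, 4.60 in 2D co-culture and 18.7 in the tumor, an average under 10 CPM without the spheroid. The spheroid, the highest library of all 6 genes, raised the average of each.

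The comparisons without the spheroid library divided the genes differently. In 2D co-culture against 2D monoculture none was over 2-fold higher (3.79% of all genes) and 1, Fbxo2, was over 2-fold lower (9.51%). Without the added CPM, Fxyd1 was 3.09-fold and Cort 2.33-fold higher in that comparison. In tumor against 2D monoculture, Fxyd1 and Cort were over 2-fold higher (14.8% of all genes), and Fbxo2, Nrxn2 and Dusp8 were over 2-fold lower (18.2%). Rasd2 had 2.30-fold without the added CPM, and just under 2-fold with it, and the count of genes higher in the tumor was 3 under 5 of the 6 alternatives. In 2D co-culture against tumor, 3 were higher (18.8% of all genes) and 2 lower (20.9%). The 2D monoculture and tumor libraries are also the denominators of the ratios that chose the genes, so these directions are partly fixed by the choice.

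In the ranking against 2D monoculture, Fxyd1 stood at 1 (log2 ratio 4.36 with 1 CPM added), Rasd2 at 2 (4.23) and Cort at 4 (3.93). Hpse, the matrix enzyme heparanase, stood at 3 (3.97). Just inside the border was Aire, the thymic regulator of self antigens, at 5 (3.76), and just outside was the immediate early gene Egr1 at 6 (3.69). In the ranking against the tumor, Fbxo2 stood at 1 (5.87), Nrxn2 at 2 (5.51) and Dusp8 at 5 (5.03), with the stress genes Ppp1r15a (5.19) and Trib3 (5.17) between them. Map1a, a microtubule protein of neurons, was just outside at 6 (4.95). Unlike the 6 genes, Map1a was lower in the spheroid (204 CPM) than in 2D monoculture (311 CPM), and it had 5.63 CPM in the tumor. In the ranking that did not choose them, Nrxn2 was at 49, Dusp8 at 100 and Fbxo2 at 1948 against 2D monoculture, and Rasd2 was at 111, Cort at 2465 and Fxyd1 at 4526 against the tumor.

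**Figure D3:**
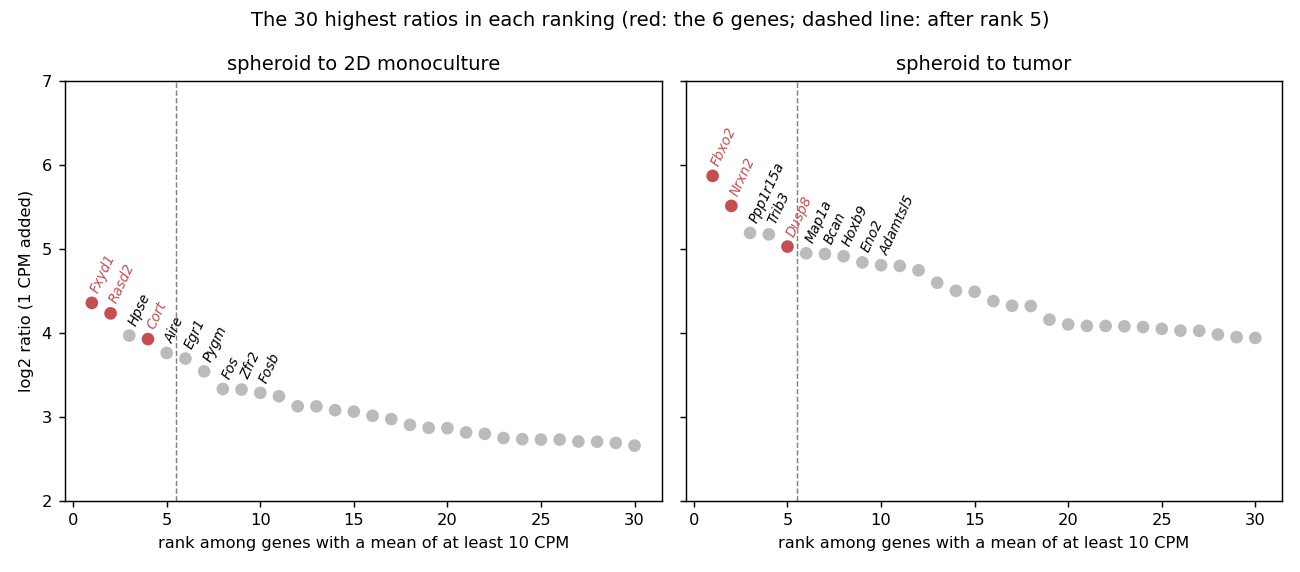
The 30 highest log2 ratios (1 CPM added) by rank, of spheroid to 2D monoculture and of spheroid to tumor, with the 6 genes in red and a dashed line after rank 5. Neighbours at the border were close: Dusp8 had 5.03 and Map1a 4.95 in the ranking against the tumor.

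The transcripts of the 6 genes were rich in G and C. The choice did not use GC content, but the medians of both selecting ratios were higher in genes of high GC content. The richness of the 6 genes' transcripts was therefore partly fixed by the choice. Their GC content was 62.4% for Nrxn2, 61.8% for Fbxo2, 58.8% for Dusp8, 58.5% for Cort, 57.3% for Fxyd1 and 55.6% for Rasd2, between percentiles 78.5 and 98.5 of the genes compared. Transcripts of like GC content and length were themselves higher in the spheroid. For the classes that hold the 6 genes, the median for spheroid against 2D monoculture was 0.50 to 0.76 on the log2 scale, and that against tumor was 0.54 for the class of Fxyd1 and 2.08 for that of Nrxn2. With the class median subtracted, the log2 value for spheroid against 2D monoculture (1 CPM added) was 3.78 for Fxyd1, 3.73 for Rasd2, 3.21 for Cort, 1.70 for Nrxn2 and 1.37 for Dusp8, while Fbxo2 came to -0.01. Against the tumor it was 4.42 for Fbxo2, 3.44 for Nrxn2, 3.11 for Dusp8 and 2.16 for Rasd2. Cort kept 0.35 and Fxyd1 came to -0.14. Whether the class medians arise in the library preparation or in the cells was not tested.

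**Figure D4:**
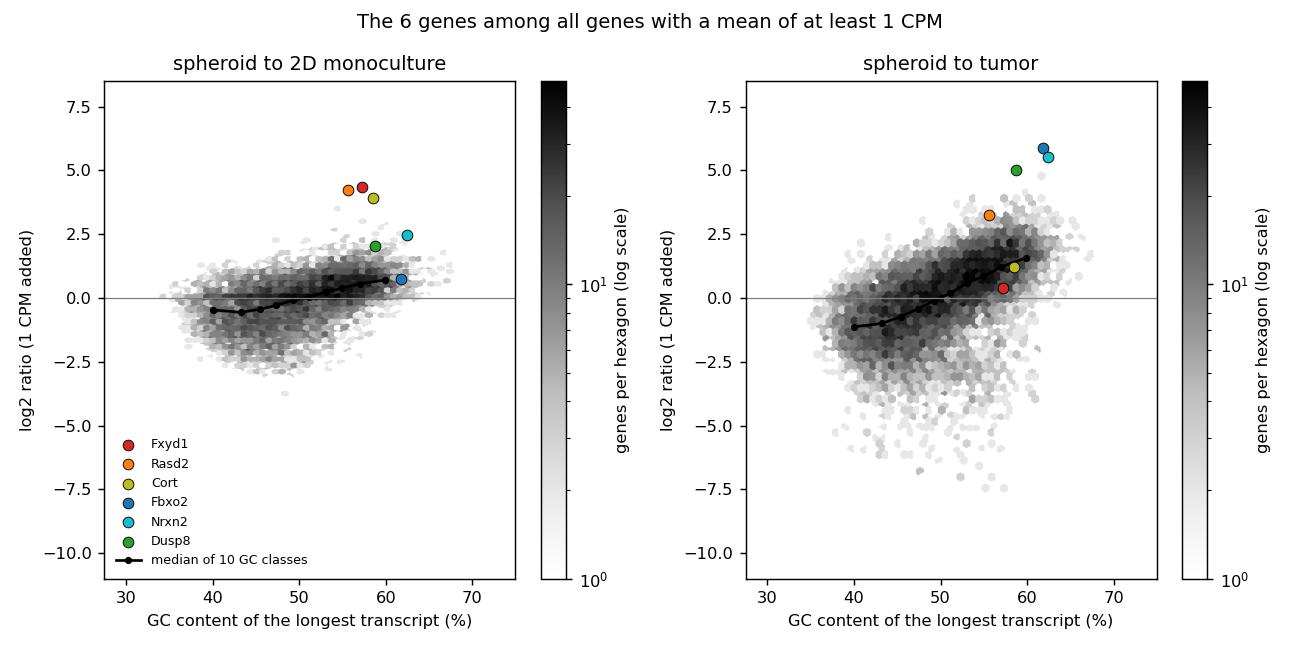
Log2 ratio of each gene (1 CPM added) against the GC content of its longest coding transcript, with the number of genes per hexagon in grey, the medians of 10 GC classes as a black line and the 6 genes in colour. The 6 genes lie on the right side of the cloud, at 55.6% to 62.4% GC, and the medians were higher toward that side in both panels.

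Other genes of each function were read from lists. The GC and length correction was not applied to the list counts and medians. For comparison with the list counts, 11.2% of all measured genes were over 2-fold higher in the spheroid than in 2D monoculture and 17.9% lower. Against the tumor the shares were 26.8% and 27.6%. In the sodium pump system, Atp1b2, a beta subunit known from glia, was the 1 of 6 measured subunits over 2-fold higher in the spheroid than in 2D monoculture. It had 0.456 CPM in 2D monoculture, 0.690 in 2D co-culture, 15.5 in the spheroid and 5.57 in the tumor, the same order as Fxyd1. Of the other FXYD proteins, 2 of 6 were measured, Fxyd5 and Fxyd6, and both were over 2-fold lower in the spheroid than in the tumor.

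Rasd1, the nearest relative of Rasd2, had at most 0.0175 CPM in the cultures and 1.87 CPM in the tumor. The 8 measured RAS-like GTPases had a median log2 ratio of 0.59 for spheroid against 2D monoculture, where all genes had 0.05. Of these, 2 were over 2-fold higher (11.2% of all genes) and none lower (17.9%). One of them, Rasl11b, had 2.78 CPM in 2D monoculture, 5.50 in 2D co-culture, 13.8 in the spheroid and 2.94 in the tumor, highest in the spheroid as Rasd2 was. Among neuropeptide precursors, only 3 of 18 were measured, Pomc among them, and none was over 2-fold higher in the spheroid than in 2D monoculture. None of the 5 somatostatin receptors, which cortistatin can bind, reached a mean of 1 CPM.

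Of the sugar-binding relatives of Fbxo2, 2 of 4 were measured, Fbxo6 and Fbxo44, and both had their libraries in the order of Fbxo2. Fbxo6 had 34.0 CPM in 2D monoculture, 27.4 in 2D co-culture, 65.3 in the spheroid and 25.1 in the tumor. Fbxo44 had 55.4, 45.5, 84.3 and 20.4 CPM in the same sequence of libraries. Of the 4 core genes of the ubiquitin ligase into which these proteins fit, 1 was over 2-fold lower in the spheroid than in 2D monoculture and none higher, with a median log2 ratio of -0.07. It was the cullin Cul1, with 175 CPM in 2D monoculture and 42.5 in the spheroid. In degradation from the endoplasmic reticulum, 1 of 16 measured genes was over 2-fold higher in the spheroid than in 2D monoculture, Herpud1 with 296 against 79.3 CPM, and 2 were lower, among them Vcp with 249 against 825 CPM. Against the tumor, 9 of the 16 were over 2-fold higher (26.8% of all genes) and 1 lower (27.6%). Their median log2 ratio was 1.19 where all genes had 0.08.

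Of the partners of neurexins at the synapse, 12 of 22 were measured. In the spheroid, 2 were over 2-fold higher than in 2D monoculture (11.2% of all genes) and none lower (17.9%). Nlgn2, a neuroligin that neurexins bind, had 16.6 CPM in 2D monoculture, 18.3 in 2D co-culture, 92.5 in the spheroid and 6.33 in the tumor. Dlg4, the postsynaptic scaffold PSD-95, had 28.5, 34.6, 146 and 7.58 CPM in that order. Both were highest in the spheroid and lowest in the tumor, as Nrxn2 was. Against the tumor, 7 of the 12 were over 2-fold higher (26.8% of all genes) and 3 lower (27.6%). Their median log2 ratio was 1.54, and -0.017 when the unmeasured partners were included.

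Of 9 MAP kinase phosphatases other than Dusp8, 6 were over 2-fold higher in the spheroid than in 2D monoculture (11.2% of all genes). None was over 2-fold lower (17.9%). Their median log2 ratio was 1.31. Dusp1, an immediate early phosphatase, had 51.3 CPM in 2D monoculture, 77.8 in 2D co-culture, 128 in the spheroid and 41.3 in the tumor. Dusp7 had 24.5, 38.3, 59.2 and 21.1 CPM in that order, also highest in the spheroid and lowest in the tumor. Dusp10 and Dusp16, which like Dusp8 act on JNK and p38, had 7.26 and 46.1 CPM in the spheroid against 11.5 and 59.3 CPM in 2D monoculture. Of the JNK and p38 kinases and their scaffolds, 8 were measured. In the spheroid, 2 were over 2-fold higher than in 2D monoculture (11.2% of all genes) and none lower (17.9%). Rest, the repressor of neuronal genes, had 22.8 CPM in 2D monoculture, 19.8 in 2D co-culture, 10.9 in the spheroid and 10.2 in the tumor. Of the 9 genes of its complex, none was over 2-fold higher in the spheroid than in 2D monoculture (11.2% of all genes) and 1 was lower (17.9%). Against the tumor, 3 of them were over 2-fold higher (26.8% of all genes) and 1 lower (27.6%).

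**Figure D5:**
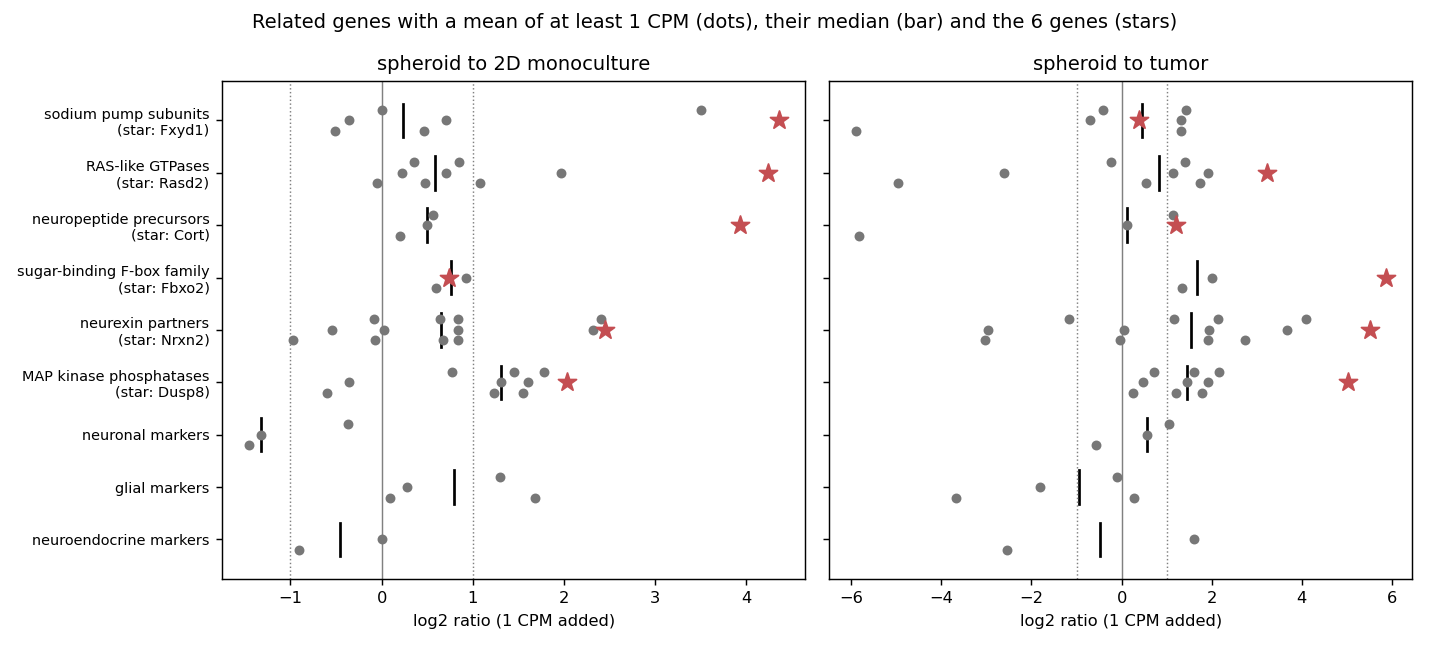
Log2 ratios (1 CPM added) of measured list genes (dots), list medians (bars) and the 6 genes (red stars), for spheroid against 2D monoculture and against tumor, with dotted lines at 2-fold. The MAP kinase phosphatases had medians of 1.31 and 1.45, where all genes had 0.05 and 0.08.

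Neighbouring genes on the chromosome had levels of their own. Lgi4, 2142 bases from Fxyd1, had 0.344 CPM in 2D monoculture, 3.29 in 2D co-culture, 8.16 in the spheroid and 6.33 in the tumor, the order of Fxyd1. Fxyd7, 210 bases on its other side, reached at most 0.198 CPM. Fbxo44 begins 138 bases from Fbxo2 on the other strand. Cenps, listed under its older symbol Apitd1 and 357 bases from Cort on the same strand, had 9.05 CPM in the spheroid, its lowest level, where Cort had its highest. Slc22a12 lies within Nrxn2 on the other strand and had at most 0.874 CPM. The library kit does not mark strand and the strand setting of the counting is not given in the sources used here, so reads of Nrxn2 and of its antisense neighbour cannot be told apart where they overlap.

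Over the 4 libraries, the genes nearest in pattern to each of the 6 were found by the distance between log2(CPM + 1) values centred on their mean, a description over 4 points. Cort was nearest to Hpse (0.20) and Aire (0.37), and Fxyd1 to Aire (0.73) and Hpse (0.90), while the median distance to all genes was 3.35 for Cort and 4.08 for Fxyd1. Hpse had 8.97 CPM in 2D monoculture, 20.9 in 2D co-culture, 155 in the spheroid and 76.0 in the tumor. Rasd2 was nearest to Nrbp2 (0.93) and Macrod1 (0.97). Nrxn2 was nearest to Hoxb9 (0.60) and Ppp1r15a (0.61), and Dusp8 to Ppp1r15a (0.37) and Acot2 (0.38). Fbxo2 had Bcan, the brain proteoglycan brevican, at 0.92 and Map1a at 1.09. Of the pairs among the 6 themselves, Nrxn2 and Dusp8 (0.94) and Fxyd1 and Cort (0.99) were the nearest. The distances use levels that also chose the genes, and the genes of each pair were chosen by the same ranking. Hpse, Aire, Ppp1r15a, Map1a and Bcan also stood near the top of these rankings. Such likeness was therefore partly fixed by the choice.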

How the data were processed

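The table deposited by the authors gives read counts on each gene for 4 poly(A)-selected libraries, 1 per condition, sequenced as pairs of 150-base reads. These are whole numbers, not normalized. The submitters' processing notes name Trimmomatic, STAR, featureCounts and mm10, without versions. No other sample columns were present.

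CPM values used TMM factors (0.908 spheroid, 0.963 co-culture, 0.984 monoculture, 1.16 tumor) from edgeR 4.0.16 in R 4.3.3. Alternatives were total counts, upper quartiles, size factors from DESeq2 1.42.0, pseudocounts of 0.1 and 5 CPM, no filter on low counts, and a correction by 10 classes of GC content and 10 of length from GENCODE M21, which covered 97.9% of the genes that averaged 1 CPM or more. Python 3.11.15, numpy 2.4.6, pandas 2.3.3, scipy 1.17.1 and matplotlib 3.10.9 were used. Intervals are exact Clopper-Pearson intervals at 95%, and those of log2 ratios come from the binomial share of reads. A floor of 3 counts came to 0.0185 to 0.0262 CPM. Log2 ratios of single genes have nothing added, while rankings, lists and counts over 2-fold add 1 CPM. No test was made, since no condition has a second library. The scripts were tested on simulated data.

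The 6 genes and the lists were chosen with earlier results of these data known. Named genes were the 6, the 3 nearest in pattern to each, the others up to rank 6 of both rankings, chromosomal neighbours, and list genes of high mean CPM or over 2-fold in a comparison. Rasd1, Dusp10 and Rest were named for their roles after their values were seen.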

Additional observations from a re-analysis of the deposited data

How the results depend on the processing

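The order of the 6 genes' libraries and the signs of their 36 single ratios did not change under DESeq2 size factors, total counts or upper quartiles. The GC and length correction turned 2 of them, Fbxo2 in spheroid against 2D monoculture (-0.01) and Fxyd1 in spheroid against tumor (-0.13). The class medians it subtracts had 1 CPM added, while these ratios had nothing added. With 1 CPM added to both, Fxyd1 came to -0.14. Genes over 2-fold higher in 2D co-culture against 2D monoculture went from 0 to 1 with upper quartiles and to 2 with 0.1 CPM added. Those higher in spheroid against tumor went from 5 to 4 with total counts and with the GC and length correction, and those higher in tumor against 2D monoculture from 2 to 3 under every alternative but 5 CPM added. Genes lower in 2D co-culture against tumor went from 2 to 3 with the GC and length correction. With 5 CPM added, 2 of the 6 genes, Rasd2 and Fbxo2, remained among the 5 highest of their ranking. Keeping genes with low counts brought list medians to -0.25 (sodium pump) and -0.12 (RAS-like GTPases) for spheroid against tumor, to 0.0 against 2D monoculture and -0.017 against tumor for neurexin partners, which had 0.62 against tumor with 5 CPM added, to -0.014, -0.10 and -0.17 for neuronal markers against 2D monoculture, 2D co-culture and tumor, and to 0.047 and -0.013 for glial markers against the 2D cultures. The other 188 of 198 list medians moved less. With 0.1 CPM added, 14 of the 18 nearest genes were shared. No paired analysis was possible because no condition had more than 1 library. Depth limits Nrxn2 in the tumor (118 reads) and Fxyd1 in 2D monoculture (122 reads) most.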

Other observations

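Some genes outside the lists, chosen after their values were seen, stood beside the 6. In the ranking of spheroid to 2D monoculture, the immediate early genes Egr1, Fos and Fosb held ranks 6, 8 and 10. Fos had 23.7 CPM in 2D monoculture, 63.2 in 2D co-culture, 247 in the spheroid and 44.4 in the tumor, and it was the third nearest gene to Rasd2 in pattern. In the ranking of spheroid to tumor, Bcan and Eno2, the enolase of neurons, held ranks 7 and 9, and Eno2 was the third nearest gene to Dusp8 at a distance of 0.48. Mbp, the myelin basic protein, which was on the glial list, went the other way against the tumor only. It had 137 CPM in the tumor, 9.73 CPM in the spheroid and 2.34 CPM in 2D monoculture.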
